A study of Mus musculus with 10 samples.

Results

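Glucose uptake, glycolysis and the carbohydrate-sensing transcription factor ChREBP were examined in mouse liver through 9 genes, Slc2a2, Gckr, Pfkl, Pfkfb1, Pfkfb3, Pklr, Khk, Mlxipl and Txnip. They were taken by gene symbol from the 41388 Ensembl genes counted in each library. All 9 were found once and passed the filter on low counts, which left 13444 genes for testing.

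The liver takes up glucose through a high-capacity transporter (GLUT2, from Slc2a2) and traps it as glucose-6-phosphate, a step under the control of the regulatory protein GKRP (from Gckr). Phosphofructokinase (Pfkl is its liver subunit) and pyruvate kinase (Pklr) commit carbon to pyruvate, and the 6-phosphofructo-2-kinase/fructose-2,6-bisphosphatases (Pfkfb1, Pfkfb3) set the level of the activator of phosphofructokinase. ChREBP, encoded by Mlxipl, binds DNA with its partner Mlx and is known in liver as a carbohydrate-activated regulator of glycolytic and lipogenic genes. Txnip, an arrestin-fold protein that restrains glucose uptake and binds thioredoxin, is among its textbook targets.

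The libraries came from 2 WT refed, 3 WT fasting and 5 NAMPT LKO fasting mice, littermates of about 12 weeks with the strain labelled C57B/6J, with 1 library of polyadenylated liver RNA per mouse. WT mice carry floxed, intact Nampt alleles (NAMPT fl/fl) and no Cre, and NAMPT LKO mice lack Nampt in hepatocytes through Albumin-cre, which is active from early life, so other liver cells keep the gene. Fasting lasted 24 h, and the refed mice were fasted for 22 h and refed for 2 h, whereas the text of the study speaks of random-fed controls and a shorter fast. No NAMPT LKO mouse was refed, so genotype and feeding state were not crossed, and NAMPT LKO livers are always those of fasted mice. In whole liver, fewer cells of a type and less RNA per cell cannot be told apart.

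Total counts ranged from 30603080 to 43434139 per library. Nampt, the targeted gene, was at 11.8 to 15.3 CPM (TMM-normalized counts scaled by the library total) in the 5 NAMPT LKO livers and at 63.0, 73.4 and 141 CPM in the WT fasting livers. It differed by -2.81 on the log2 scale with a SE (SE) of 0.22 (edgeR's quasi-likelihood test, adjusted p = 0.00102). NAMPT LKO mouse 5 stood apart from the other libraries, with a mitochondrial share of 21.1% of its counts against 7.42% to 12.9%. Its deviation from the mean over all libraries fell with GC content (Spearman's rho across genes -0.56, between -0.03 and 0.27 elsewhere). Macrophage markers summed to 329 CPM in WT fasting mouse 3 and to 129 to 262 CPM in the other 9 livers. Cholangiocyte markers (6 genes, 5 above 1 CPM) summed to 34.3 to 54.6 CPM in NAMPT LKO livers and to 15.2 to 22.5 CPM in WT livers. Stellate or fibroblast markers (8 genes, 7 above 1 CPM) summed to 225 to 300 CPM in NAMPT LKO livers. In WT fasting livers, which overlapped with these, they summed to 182 to 235 CPM, and in refed livers to 185 and 187 CPM. Endothelial markers (6 genes, 6 above 1 CPM) summed to 189 and 190 CPM in refed and to 201 to 261 CPM in fasting livers. Adipocyte markers (5 genes, with only the lipid droplet gene Cidec above 1 CPM) summed to 12.6 and 13.4 CPM in refed and to 17.5 to 28.3 CPM in fasting livers. The part of these cell types in the results was not tested. The 9 hepatocyte markers summed to 70144 to 117577 CPM in every liver. Exocrine pancreas markers (6 genes, 1 above 1 CPM) summed to 6.54 to 7.17 CPM in WT livers and to 3.69 to 5.40 CPM in NAMPT LKO livers. Of these 6, Prss2 and Cpa1 were at 0 in every liver.

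Because ChREBP and Mlx bind paired E-box-like sites, the 250 bases before each RefSeq start of the 9 genes and the 50 after it (GRCm38.p6) were searched on both strands. CACGTG was held by 7.15% of all 32851 such windows. CACG followed after 9 bases by CGTG, an inverted pair, was held by 0.28%. CACGNG followed after 5 bases by CACGNG, a direct repeat added after the windows had been searched, was held by 0.0487%. The windows of Slc2a2, Gckr, Pfkl and Pfkfb1 and the other start of Pklr, Pfkfb3 and Mlxipl held none of these letters. The stretches with a match are shown because they belong to the genes whose values follow. They run 5′ to 3′ on the gene's strand with the match in capitals, and exon bases of the gene's own counted model were left out. The Pklr stretch lies before the downstream of 2 starts, at chr3:89136373-89136571 in the intron that follows the first exon, and its match runs from base -170 to base -154 from that start. The Txnip stretch is at chr3:96557707-96557956, and its match (-85 to -69) falls inside an exon of the antisense RNA gene Gm15441. The Mlxipl stretch (chr5:135089752-135089837) lies before the upstream of 2 starts, which are 17001 bases apart. That of Khk (chr5:30921476-30921505) lies before its only start, and that of Pfkfb3 (chr2:11502102-11502183, minus strand) before the start nearer to the gene body. The stretch of Arrdc4 (chr7:68749386-68749471, minus strand), an arrestin relative of Txnip, has its match from base -193 to base -188. A match is a description of the letters and no evidence of binding.
Pklr: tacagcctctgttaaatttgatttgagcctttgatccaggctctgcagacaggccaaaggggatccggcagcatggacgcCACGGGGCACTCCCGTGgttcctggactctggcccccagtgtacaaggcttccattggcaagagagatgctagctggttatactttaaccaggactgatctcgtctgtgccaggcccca
Txnip: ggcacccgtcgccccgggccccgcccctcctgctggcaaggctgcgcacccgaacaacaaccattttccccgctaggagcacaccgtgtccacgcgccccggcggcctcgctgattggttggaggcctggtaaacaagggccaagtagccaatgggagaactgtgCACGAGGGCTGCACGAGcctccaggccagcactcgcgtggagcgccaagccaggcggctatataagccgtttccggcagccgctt
Mlxipl: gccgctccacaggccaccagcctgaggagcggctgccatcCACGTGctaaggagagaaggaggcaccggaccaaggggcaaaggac
Khk: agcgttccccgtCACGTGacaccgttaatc
Pfkfb3: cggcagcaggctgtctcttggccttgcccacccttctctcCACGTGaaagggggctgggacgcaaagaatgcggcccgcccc
Arrdc4: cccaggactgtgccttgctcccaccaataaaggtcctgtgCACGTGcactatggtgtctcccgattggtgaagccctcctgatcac

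Per exonic length, Khk was the most abundant of the 9 transcripts, at 139 ± 19.0 RPKM (reads scaled by exonic length and library total, SD, n = 10) and rank 370 of the 13444 genes tested. Slc2a2 followed at 51.3 ± 5.403 RPKM, and each of these levels was above that of the next gene in all 10 libraries. Gckr (34.3 ± 5.36 RPKM) and Txnip (32.0 ± 13.3 RPKM) were not ordered, since Gckr was the higher of the pair in 4 of 10 libraries. Txnip was above Mlxipl (27.2 ± 3.96 RPKM) in 7 of 10 libraries, whereas Mlxipl was above Pklr (16.9 ± 5.05 RPKM) in all 10. The phosphofructokinase genes were the least abundant. Pfkl, at 6.95 ± 1.02 RPKM, was above Pfkfb1, at 5.84 ± 1.90 RPKM, in 6 of 10 libraries, and Pfkfb3, at 1.79 ± 0.734 RPKM and rank 8938, was below Pfkfb1 in every library. Between the highest and the lowest library the CPM of Txnip and of Pfkfb3 differed 3.92-fold, of Pfkfb1 2.76-fold and of Pklr 2.47-fold, and those of the other 5 genes by 1.35- to 1.49-fold. The 4 genes with a wide range and the 5 with a narrow one are plotted by liver.

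**Figure D1:**
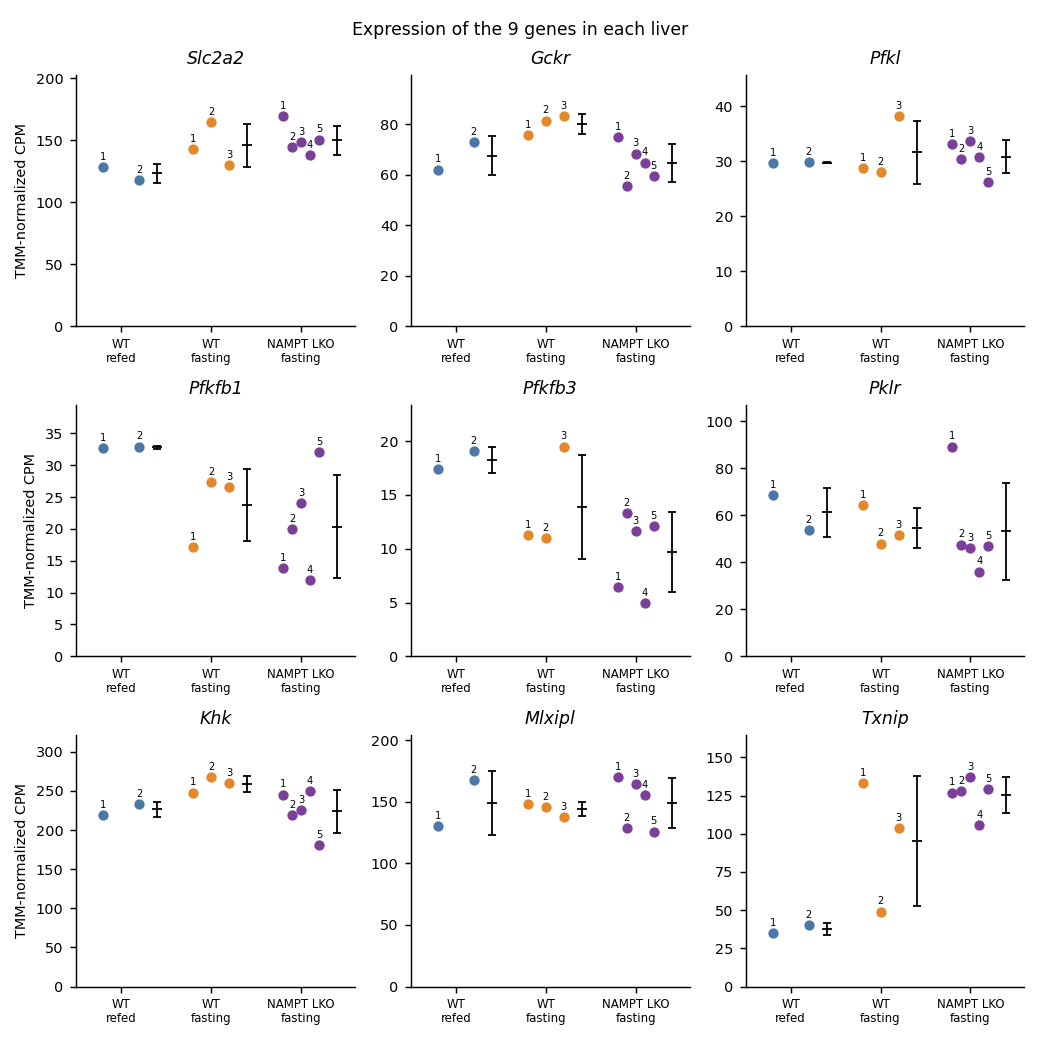
TMM-normalized CPM (y axis, from 0) of the 9 genes in each liver (points, numbered by mouse) of the WT refed, WT fasting and NAMPT LKO fasting groups, with the mean and SD of each group in black. Txnip was at 35.0 and 40.5 CPM in the refed livers and at 106 to 137 CPM in the NAMPT LKO livers, with WT fasting mouse 2 at 49.0 CPM between them.

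WT fasting and WT refed livers were compared to ask which steps of glucose use differ between the feeding states. Of the 9 genes, Txnip passed the test and was higher in WT fasting livers, and 8 were not called. Of all genes tested 7.04% were called, 360 as higher and 586 as lower (adjusted p at or under 0.05 in edgeR's test). With library size alone as the scaling 979 genes were called, and 25.7% of them were higher in place of 38.1%. For 5 of the 9 genes, WT fasting and refed livers had no overlap, against 49.7% of all genes tested. The median log2 fold change of the 9 was 0.09, and that of all genes tested 0.04.

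NAMPT LKO fasting and WT fasting livers were compared to ask what hepatocyte Nampt contributes during fasting. No gene of the 9 was called, and 1 of them, Gckr, had an unadjusted p under 0.05, as did 6.03% of all genes tested (811 genes). Only Nampt, 0.00744% of all genes, was called by edgeR's quasi-likelihood test. DESeq2 called 21 genes and edgeR's exact test 24, with none of the 9 among them. The groups did not overlap for Gckr, 1 gene of 9, against 3.99% of all genes tested. The median of the 9 was -0.04 and that of all genes 0.00. On data simulated for this comparison, 68% of genes changed by a log2 fold change of 1 were recovered and 97% of those changed by 2. Beside the 165 of 200 changed genes recovered, 11 unchanged genes were called. The changed genes were drawn from those with higher mean counts, and smaller changes and a GC trend were not simulated.

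The same refed livers were also set beside the NAMPT LKO livers, so these fold changes share control mice with the first comparison. Here 11.2% of all genes were called and again 1 of the 9, Txnip, higher in NAMPT LKO livers. With library size alone 26.1% of the called genes were higher, in place of 41.4%. The groups did not overlap for 4 of the 9 genes, against 33.5% of all genes tested.

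**Figure D2:**
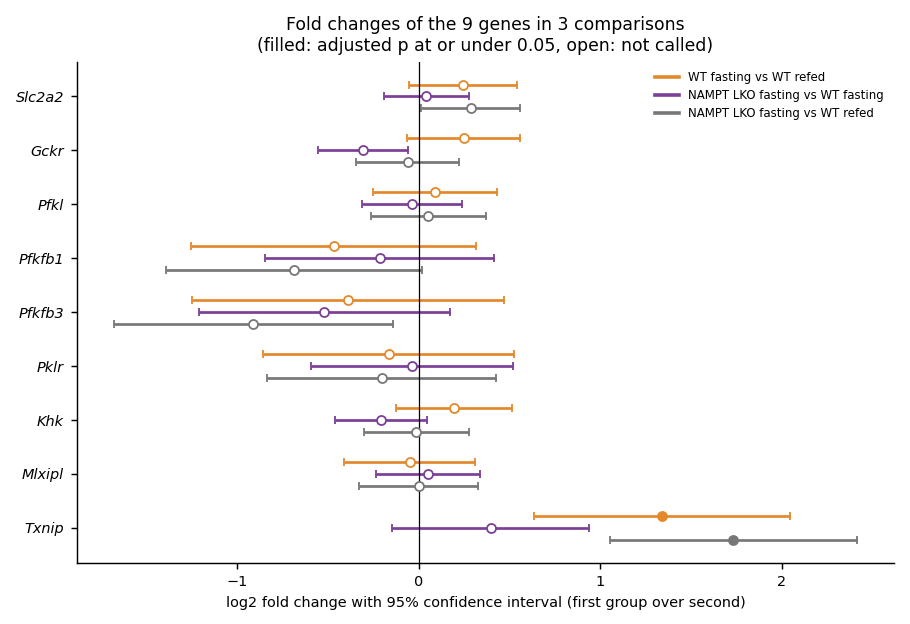
Log2 fold change (x axis) of each of the 9 genes (y axis) in the 3 comparisons, as the first group named over the second. Bars are 95% confidence intervals of the edgeR fit, and filled points passed an adjusted p of 0.05. Txnip in both comparisons with WT refed livers is filled, and every interval for NAMPT LKO vs WT fasting except that of Gckr crosses 0.

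Slc2a2, the gene of the transporter GLUT2, was at 128 and 118 CPM in the refed livers, at 143, 164 and 130 CPM in the WT fasting livers and between 138 and 169 CPM (median 148) in the NAMPT LKO livers. All 8 fasting livers were above the refed pair, WT fasting mouse 3 by a narrow margin. The log2 fold change was 0.24 (SE 0.13, adjusted p = 0.316) in WT fasting vs refed, and 0.28 (SE 0.12, adjusted p = 0.174) in NAMPT LKO vs refed. Both were called by limma's voomWithQualityWeights, which weights libraries by quality (adjusted p = 0.0424 and 0.0347). That tool called 3331 and 4281 of all 13444 genes tested in these comparisons, against 946 and 1510 by edgeR's quasi-likelihood test. NAMPT LKO and WT fasting livers overlapped, with a log2 fold change of 0.04 and a 95% confidence interval from -0.19 to 0.28. Unless another test is named, p-values are from edgeR's quasi-likelihood test with Benjamini-Hochberg adjustment over all genes.

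Gckr, whose product GKRP restrains glucose phosphorylation, was at 62.0 and 72.9 CPM in the refed livers, at 75.5, 81.3 and 83.0 CPM in the WT fasting livers and between 55.5 and 75.0 CPM (median 64.7) in the NAMPT LKO livers. The WT fasting livers were the highest of the 10, and NAMPT LKO mouse 1 came within 1 CPM of the lowest of them. Between the fasted groups the log2 difference was -0.31, with an SE of 0.11 and a 95% confidence interval from -0.56 to -0.06, and did not pass the correction (adjusted p = 0.798). In WT fasting vs refed livers it was 0.25 (SE 0.14, adjusted p = 0.342), and in NAMPT LKO vs refed livers -0.06 (SE 0.13, adjusted p = 0.805).

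Pfkl, the liver subunit of phosphofructokinase, was at 29.7 and 29.8 CPM in the refed livers, at 28.7, 28.0 and 38.1 CPM in the WT fasting livers and between 26.2 and 33.6 CPM in the NAMPT LKO livers. The groups overlapped in every comparison, and the 95% confidence interval of the log2 fold change was -0.25 to 0.43 in WT fasting vs refed and -0.31 to 0.24 in NAMPT LKO vs WT fasting. The high liver was WT fasting mouse 3, which also had the highest values of Pkm (33.3 CPM, 11.8 to 16.0 in the other 9 livers), Pfkp (5.01 CPM, 1.59 to 2.66 elsewhere) and the macrophage markers Csf1r (91.7 CPM, 33.9 to 65.0 elsewhere) and Adgre1 (25.9 CPM, 8.28 to 15.2 elsewhere). The part of macrophage RNA in these values was not tested.

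Pfkfb1, the bifunctional enzyme isoform of liver and muscle, was at 32.7 and 32.9 CPM in the refed livers, at 17.2, 27.3 and 26.6 CPM in the WT fasting livers and at 13.8, 19.998, 24.0, 11.9 and 32.0 CPM in NAMPT LKO mice 1 to 5. Every fasting liver was below both refed livers, with NAMPT LKO mouse 5 the closest. The log2 fold change was -0.47 (SE 0.36, adjusted p = 0.479) in WT fasting vs refed and -0.69 (SE 0.32, adjusted p = 0.205) in NAMPT LKO vs refed livers. NAMPT LKO and WT fasting livers differed by -0.22 (95% confidence interval -0.85 to 0.42). Without NAMPT LKO mouse 5, the library that stood apart, NAMPT LKO vs refed passed the threshold (-0.91, adjusted p = 0.0367). It also did with limma's voomWithQualityWeights (-0.88, adjusted p = 0.00794). These 2 fits called 2835 and 4281 of all 13444 genes tested in that comparison.

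Pfkfb3, the isoform whose kinase activity predominates, was at 17.4 and 19.1 CPM in the refed livers, at 11.2, 11.0 and 19.5 CPM in the WT fasting livers and at 6.45, 13.3, 11.6, 4.97 and 12.1 CPM in NAMPT LKO mice 1 to 5. WT fasting mouse 3 was at the level of the refed mice, and NAMPT LKO mice 1 and 4 were the lowest of the 10 livers, as they were for Pfkfb1. The log2 fold change was -0.39 (SE 0.39, adjusted p = 0.603) in WT fasting vs refed and -0.91 (SE 0.35, adjusted p = 0.123) in NAMPT LKO vs refed livers. The latter was called by limma's voomWithQualityWeights (-0.99, adjusted p = 0.0126), as were 4281 of all 13444 genes tested. In NAMPT LKO vs WT fasting livers the log2 fold change was -0.52 with a 95% confidence interval from -1.21 to 0.17. The log2 ratio of Pfkfb3 to Pfkfb1 was -1.59 ± 0.459 (SD, n = 3) in WT fasting and -1.88 ± 0.306 (SD, n = 5) in NAMPT LKO livers, with overlap (two-sided exact permutation p = 0.357, adjusted p = 0.952 over 8 ratios).

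Pklr, the pyruvate kinase gene of liver and red cells, was at 68.7 and 53.8 CPM in the refed livers, at 64.3, 47.9 and 51.4 CPM in the WT fasting livers and at 89.1, 47.5, 46.0, 36.05 and 46.9 CPM in NAMPT LKO mice 1 to 5. The groups overlapped, and NAMPT LKO mouse 1 was the highest of the 10 livers. The log2 fold change was -0.17 (SE 0.31, adjusted p = 0.802) in WT fasting vs refed and -0.04 (95% confidence interval -0.59 to 0.52) in NAMPT LKO vs WT fasting livers, where leaving out NAMPT LKO mouse 1 gave -0.31 and leaving out WT fasting mouse 1 gave 0.10. Transcripts from both starts of Pklr were counted together. Its counted model also shares 711 of 3236 exonic bases with Hcn3, a gene on the other strand at 1.99 to 8.53 CPM, and whether counting used strand is not given in the sources used here.

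Khk, the ketohexokinase that sends fructose into the pathway below phosphofructokinase, was at 219 and 233 CPM in the refed livers, at 248, 268 and 260 CPM in the WT fasting livers and between 181 and 249 CPM (median 226) in the NAMPT LKO livers. WT fasting livers were above both refed livers, by 0.19 on the log2 scale (SE 0.14, adjusted p = 0.471). NAMPT LKO and WT fasting livers met near 248 CPM with a log2 fold change of -0.21 (95% confidence interval -0.46 to 0.05). The lowest liver was NAMPT LKO mouse 5. The 2 protein isoforms of Khk, which arise by alternative splicing, were counted as 1 gene.

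Mlxipl, the gene of ChREBP, was at 130 and 168 CPM in the refed livers, at 148, 146 and 138 CPM in the WT fasting livers and at 170, 129, 164, 155 and 126 CPM in NAMPT LKO mice 1 to 5. The refed pair spanned the whole WT fasting group, and the groups overlapped in every comparison. The 95% confidence interval of the log2 fold change was -0.41 to 0.31 in WT fasting vs refed, -0.24 to 0.34 in NAMPT LKO vs WT fasting and -0.33 to 0.33 in NAMPT LKO vs refed livers. The counted model begins at the downstream start (position 135106891 of chromosome 5), so that the first exon of the transcript from the upstream start, before which the E-box shown above lies, is outside it. These counts therefore do not separate the transcripts of the 2 starts.

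Mlx, the partner of ChREBP, was at 27.9 and 30.0 CPM in the refed livers, at 21.6, 19.8 and 24.2 CPM in the WT fasting livers and at 16.2, 16.4, 16.0, 21.8 and 15.2 CPM in NAMPT LKO mice 1 to 5. NAMPT LKO mouse 4 lay within the WT fasting range and the other 4 below it. Mlx fell by 0.76 on the log2 scale (SE 0.15, adjusted p = 0.00882) in NAMPT LKO vs refed livers, a call that was lost without WT refed mouse 1 (adjusted p = 0.0682) or mouse 2 (0.128). In WT fasting vs refed livers the log2 fold change was -0.41 (SE 0.16, adjusted p = 0.17), and in NAMPT LKO vs WT fasting livers -0.35 (SE 0.13, adjusted p = 0.801). The log2 ratio of Mlx to Mlxipl was -1.30 ± 0.192 (SD, n = 3) in WT fasting and -1.70 ± 0.247 (SD, n = 5) in NAMPT LKO livers (two-sided exact permutation p = 0.0714, adjusted p = 0.286 over 8 ratios). Mlxip, the paralogue MondoA, was at 10.02 to 20.7 CPM.

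Txnip was at 35.0 and 40.5 CPM in the refed livers, at 133, 49.0 and 104 CPM in WT fasting mice 1 to 3 and at 127, 128, 137, 106 and 129 CPM in NAMPT LKO mice 1 to 5. All 8 fasting livers were above both refed livers, but WT fasting mouse 2 exceeded the higher refed liver by less than 10 CPM, whereas the NAMPT LKO livers lay close together. Against refed livers, Txnip rose 2.53-fold in WT fasting livers (log2 1.34, SE 0.32, adjusted p = 0.0302) and 3.32-fold in NAMPT LKO livers (log2 1.73, SE 0.31, adjusted p = 0.00576). NAMPT LKO and WT fasting livers overlapped, with a log2 fold change of 0.39 (95% confidence interval -0.15 to 0.94, adjusted p = 0.839). Without WT fasting mouse 2 that difference was 0.08, and without WT fasting mouse 1 it was 0.71.

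The call of Txnip in WT fasting vs refed livers was lost in 5 of 10 fits that left out a mouse. These gave adjusted p = 0.217 without WT refed mouse 1, 0.195 without WT refed mouse 2, 0.0821 without WT fasting mouse 1, 0.0639 without WT fasting mouse 3 and 0.0529 without NAMPT LKO mouse 2. It was also lost when only the 2 groups were fitted (adjusted p = 0.0886). The call in NAMPT LKO vs refed livers was lost without either refed mouse (adjusted p = 0.0903 and 0.0758). With 1 mouse left out, the log2 fold changes ranged from 1.01 to 1.65 in WT fasting and from 1.62 to 1.83 in NAMPT LKO livers.

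Txnip shares 606 of its 3031 exonic bases with Gm15441, the antisense RNA over its start. The paper states that only unambiguous reads were counted, so without strand the reads of this stretch would count for neither gene. Gm15441 was at 5.18 and 6.36 CPM in the refed livers, at 26.5, 15.6 and 9.15 CPM in the WT fasting livers and between 14.5 and 44.6 CPM in the NAMPT LKO livers. It was higher in every fasting liver, and rose in NAMPT LKO vs refed livers (log2 2.19, SE 0.50, adjusted p = 0.0188, lost without WT refed mouse 1 at 0.172 or mouse 2 at 0.158). In WT fasting vs refed livers it did not pass (1.56, SE 0.51, adjusted p = 0.093). The fasting livers were ordered differently by the pair, with NAMPT LKO mouse 2 highest for Gm15441 and mouse 3 for Txnip. Apex2, which shares 123 bases with Pfkfb1, was at 5.41 to 9.22 CPM. The reference annotation also places an antisense RNA gene, Gm43500, over exonic bases of Mlxipl, and this gene has no row in the count tables used here.

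Arrdc4, an arrestin relative of Txnip that also responds to glucose, rose as well. It was at 12.9 and 11.3 CPM in the refed livers, at 24.6, 17.5 and 19.6 CPM in the WT fasting livers and between 17.8 and 23.2 CPM in the NAMPT LKO livers, so that fasting and refed livers did not overlap. Against refed livers, the log2 fold change was 0.77 (SE 0.18, adjusted p = 0.0279) in WT fasting and 0.74 (SE 0.17, adjusted p = 0.0191) in NAMPT LKO livers. The first call was lost without WT refed mouse 1 (adjusted p = 0.133), WT refed mouse 2 (0.269) or WT fasting mouse 1 (0.0878), and the second without WT refed mouse 1 (0.112) or mouse 2 (0.23). The log2 ratio of Txnip to Arrdc4 was 2.83, 1.88 and 2.80 in the WT fasting livers and 2.87 to 3.24 in the NAMPT LKO livers, without overlap between the groups. The two-sided exact permutation p was 0.0179, which is the least that 5 mice against 3 can give (adjusted p = 0.143 over 8 ratios). The separation from WT fasting mice 1 and 3 was narrow.

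**Figure D3:**
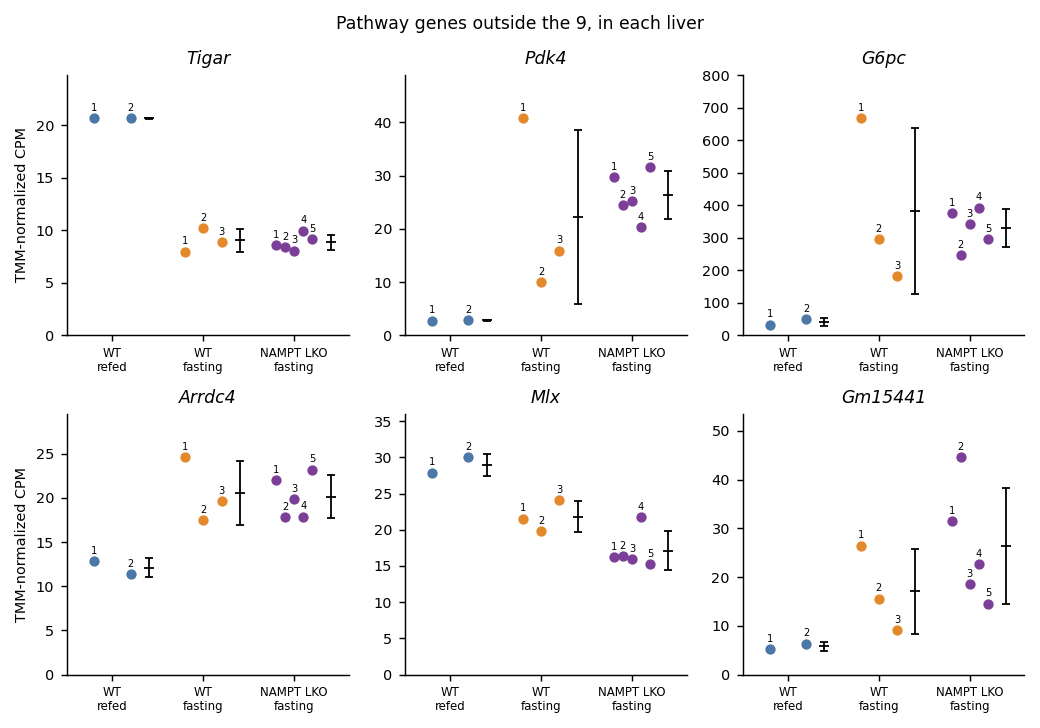
TMM-normalized CPM (y axis, from 0) of Tigar, Pdk4, G6pc, Arrdc4, Mlx and Gm15441 in each liver (points, numbered by mouse), with the mean and SD of each group in black. Tigar was lower and Pdk4, G6pc, Arrdc4 and Gm15441 higher in every fasting liver than in both refed livers, and Mlx was at 15.2 to 24.2 CPM in fasting and 27.9 and 30.0 CPM in refed livers.

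The other genes of the pathway were taken from 8 lists. Of 23 tested glycolysis enzymes, Tigar fell in WT fasting vs refed livers and 22 were not called by edgeR's quasi-likelihood test. DESeq2 and edgeR's exact test also called Tigar alone, and voomWithQualityWeights added Aldoa, Pfkm and Pgam1. Tigar, a fructose-2,6-bisphosphatase that lowers the activator of phosphofructokinase, was at 20.7 CPM in both refed livers and at 7.98 to 10.2 CPM in the 8 fasting livers. It was lower in both fasted groups, with a log2 value of -1.20 (SE 0.15, adjusted p = 0.0014) in WT and -1.23 (SE 0.13, adjusted p = 0.000401) in NAMPT LKO livers. Its call held without any 1 of the mice. Pfkm, the muscle subunit of phosphofructokinase, did not pass (0.35, SE 0.15, adjusted p = 0.187). The median log2 fold change of the list was 0.06, against 0.04 for all genes tested. Between NAMPT LKO and WT fasting livers it was -0.18, against 0.00 for all genes tested, with 0 of 23 called by edgeR's quasi-likelihood test. Of the 23, 2 had an unadjusted p under 0.05, as did 6.03% of all genes tested. These 2 were Hk2 and Hk3, both highest in WT fasting mouse 3.

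Of 10 tested genes of glucose transport and phosphorylation, 0 were called in any comparison by edgeR's quasi-likelihood test, DESeq2 or edgeR's exact test, and voomWithQualityWeights called Slc2a2. In NAMPT LKO vs WT fasting livers 3 of the 10, Gckr, Hk2 and Hk3, had an unadjusted p under 0.05, as did 6.03% of all genes tested. Hk3, a hexokinase abundant in myeloid cells, was at 26.0 CPM in WT fasting mouse 3, the liver with the most macrophage marker RNA, and at 1.33 to 3.36 CPM in the other 9 livers. Its log2 fold change in NAMPT LKO vs WT fasting livers was -2.003 (SE 0.69, adjusted p = 0.798), and 0.16 without that mouse. Hk2 was likewise at 5.03 CPM in that mouse and at 0.946 to 2.33 CPM elsewhere, with a log2 fold change of -1.20 (SE 0.40, adjusted p = 0.798), and -0.31 without that mouse. WT fasting mouse 3 also had the highest sums of neutrophil markers (5.64 CPM, 1.62 to 3.94 elsewhere) and of T, B or NK cell markers (14.0 CPM, 5.46 to 10.1 elsewhere). The part of any of these cells in the Hk3 and Hk2 values was not tested. None of the 11 fructose and polyol genes was called in any comparison by edgeR's quasi-likelihood test. Glyctk, which phosphorylates glycerate from fructose, was closest, at 104 and 99.2 CPM in refed and 63.1 to 72.8 CPM in WT fasting livers (-0.56, SE 0.20, adjusted p = 0.13). Both DESeq2 and edgeR's exact test called 0 of these 11, and voomWithQualityWeights called Glyctk in both comparisons with refed livers and Mpi in NAMPT LKO vs refed. None of 9 pentose phosphate genes was called by edgeR's quasi-likelihood test, DESeq2 or the exact test. In NAMPT LKO vs WT fasting livers 0 of them had an unadjusted p under 0.05, against 6.03% of all genes tested. However, voomWithQualityWeights called H6pd and Rpe in both comparisons with refed livers and Taldo1 in NAMPT LKO vs refed.

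Of 17 tested genes of pyruvate and lactate handling, Pdk4 rose in WT fasting livers and 16 were not called by edgeR's quasi-likelihood test. DESeq2 also called Gpt2, an alanine aminotransferase gene, and voomWithQualityWeights Gpt2 and Pdk2. Pdk4, a kinase that inhibits pyruvate dehydrogenase, was at 2.73 and 2.84 CPM in refed, at 40.8, 9.95 and 15.9 CPM in WT fasting and between 20.3 and 31.7 CPM in NAMPT LKO livers. Its log2 fold change was 3.00 (SE 0.51, adjusted p = 0.00715) in WT fasting vs refed livers, and 2.21 without WT fasting mouse 1. Pdk4 (3.24, SE 0.50, adjusted p = 0.00303) and the monocarboxylate transporter gene Slc16a7 (0.61, SE 0.16, adjusted p = 0.034) rose in NAMPT LKO vs refed livers. Pdk4 was not called without WT refed mouse 1 (adjusted p = 0.0849 in WT fasting and 0.0515 in NAMPT LKO livers) or mouse 2 (0.0936 and 0.0613). Slc16a7 was not called without WT refed mouse 1 (0.138) or mouse 2 (0.323), NAMPT LKO mouse 2 (0.067) or WT fasting mouse 2 (0.0506).

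Of the 7 opposing gluconeogenic genes, G6pc and Pck1 rose in WT fasting vs refed livers. G6pc, whose enzyme releases free glucose, was at 32.4 and 50.0 CPM in refed, at 668, 297 and 182 CPM in WT fasting and between 246 and 392 CPM in NAMPT LKO livers. The log2 fold change in WT fasting livers was 3.21 (SE 0.50, adjusted p = 0.00444), which was not called without WT refed mouse 1 (0.0681) or mouse 2 (0.0529) and was 2.53 without WT fasting mouse 1. Pck1, the enzyme that bypasses pyruvate kinase, had a log2 fold change of 1.41 (SE 0.17, adjusted p = 0.00138), and that call held without any 1 of the mice. The log2 ratio of Pklr to Pck1 had a mean difference of -1.57 between WT fasting and refed livers, without overlap. The two-sided exact permutation p was 0.1, which is the least that 3 mice against 2 can give (adjusted p = 0.267 over 8 ratios). Of the genes in this ratio, Pklr alone was not called (log2 fold change -0.17, SE 0.31, adjusted p = 0.802 in edgeR's quasi-likelihood test).

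**Figure D4:**
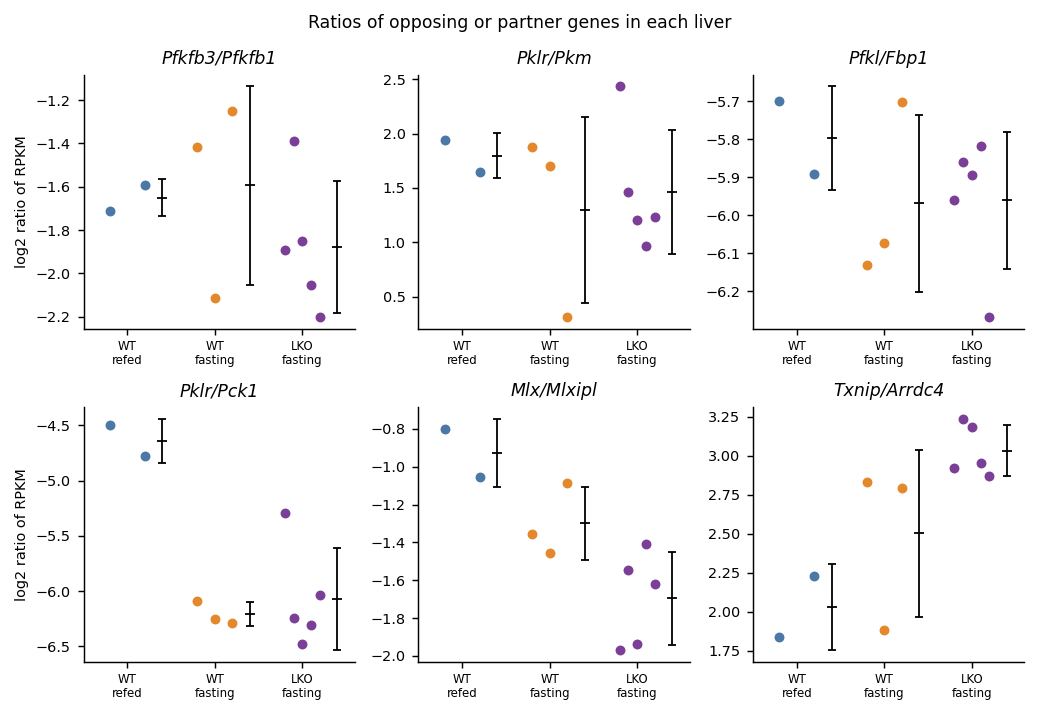
Log2 ratio of RPKM (y axis, each panel on its own scale that does not start at 0) of 6 gene pairs in each liver (points) of the WT refed, WT fasting and NAMPT LKO fasting groups, with the mean and SD in black. The Pklr to Pck1 ratio separates refed from fasting livers, and the Txnip to Arrdc4 ratio lies at 2.87 to 3.24 in NAMPT LKO livers, above every WT fasting liver.

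Of 8 genes in the list of ChREBP relatives, the partner and arrestin relatives, 3 rose in WT fasting vs refed livers, Txnip, Arrdc4 and Arrdc2. The other 5 were not called by edgeR's quasi-likelihood test. DESeq2 and edgeR's exact test called the same 3, and voomWithQualityWeights added Arrdc1 and Mlx. In NAMPT LKO vs refed livers Arrdc2 did not pass edgeR's quasi-likelihood test (0.95, SE 0.28, adjusted p = 0.055), but these 3 tools called it. Arrdc2 was at 6.70 and 4.33 CPM in refed and 10.8, 12.5 and 16.8 CPM in WT fasting livers (1.28, SE 0.30, adjusted p = 0.0299), a call lost without WT refed mouse 1 (0.0843) or mouse 2 (0.3) and without WT fasting mouse 2 (0.0657) or mouse 3 (0.071). Arrdc3 went from 14.8 to 79.0 CPM within the WT fasting group. The 18 tested textbook ChREBP targets, 4 of which are among the 9 genes, were called in both directions. In WT fasting vs refed livers 3 rose, Txnip, Arrdc4 and G6pc, and 15 were not called by edgeR's quasi-likelihood test, with a median log2 fold change of 0.11 against 0.04 for all genes. DESeq2, edgeR's exact test and voomWithQualityWeights each called Elovl6 and Thrsp as well, both lower in WT fasting livers, and the last also Acly and Fasn. The same 3 genes rose in NAMPT LKO vs refed livers, and Fasn and Thrsp, which act in fatty acid synthesis, fell. The other 3 tools also called Elovl6 there.

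Thrsp was at 45.0 and 38.8 CPM in refed, at 11.4, 26.8 and 16.8 CPM in WT fasting and between 10.7 and 24.0 CPM in NAMPT LKO livers. In the latter against refed livers it was at -1.35 on the log2 scale (SE 0.30, adjusted p = 0.0177), a call lost without WT refed mouse 1 (0.145) or mouse 2 (0.108). In WT fasting vs refed livers it was -1.19 (SE 0.34, adjusted p = 0.0624), and 6 of 9 alternative settings called it (adjusted p from 0.0096 to 0.0683). Fasn was at 169 and 157 CPM in refed, 82.3 to 104 CPM in WT fasting and 60.1 to 143 CPM in NAMPT LKO livers (-0.94, SE 0.27, adjusted p = 0.0455 in NAMPT LKO vs refed). Its call was lost in 9 of 10 fits that left out a mouse, with adjusted p from 0.051 to 0.241, and kept without NAMPT LKO mouse 1 (0.00125). Elovl6, a fatty acid elongase gene, was at 53.4 and 60.7 CPM in refed and 21.2 to 30.99 CPM in WT fasting livers (-1.10, SE 0.35, adjusted p = 0.0848), and 7 of 9 alternative settings called it (adjusted p from 0.00452 to 0.0873). Between NAMPT LKO and WT fasting livers, 0 of these 18 targets was called by edgeR's test. An unadjusted p under 0.05 was held by 0 of them, against 6.03% of all genes tested.

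Over the 10 livers, the gene whose centred log2 CPM was most like that of Slc2a2 was Uox, the urate oxidase gene, with a root mean square difference of 0.06 against a spread of Slc2a2 itself of 0.15. For Mlxipl it was Pygl, the liver glycogen phosphorylase gene (0.08 against 0.15), for Pklr Rpa1 (0.21 against 0.34) and for Txnip Ctcfl (0.34 against 0.74). These likenesses are a description over 10 libraries that differ in feeding state, genotype and depth. Ranked by Spearman's rho, 2 of the 5 genes nearest to Slc2a2, 2 of 5 for Mlxipl and 0 of 5 for Pklr and for Txnip were the same.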

How the data were processed

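One liver RNA-seq library per mouse was analysed for 2 WT refed, 3 WT fasting and 5 NAMPT LKO fasting animals, with groups from the sample labels. The WT refed replicate numbers are in accession order. The authors aligned single reads with STAR to GRCm38 and counted them per Ensembl gene with featureCounts, and deposited these counts with CPM (scaled by the library total) and RPKM (also by exonic length), both of which the counts reproduce.

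rRNA genes were removed and genes above 1 CPM in 1 or more libraries were kept. One edgeR 4.0.16 quasi-likelihood fit (R 4.3.3) with TMM scaling held all 10 libraries. Standard errors are the log2 fold change over the root of F. Log2 ratios used RPKM plus 0.01 and exact permutation tests over mice. The test was tested on simulated data. Alternatives were limma 3.58.1 (voomWithQualityWeights), DESeq2 1.42.0, edgeR's exact test, other normalizations and filters, GC trend removal (loess span 0.5), 2 groups alone, blocking on the replicate number and leaving out each library.

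The 9 genes, the lists and the rule for named genes (the lowest p of each list, Nampt, ratio partners and likenesses) were chosen with earlier results of these data known, and not every gene of the rule is given. Of 8 ratios 6 are reported, and 1 list gene, left out of the list counts, is not reported here. Promoter sequences are from RefSeq. No replicate pair held identical values or agreed within sampling noise.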

Additional observations from a re-analysis of the deposited data

Results flagged for a closer look

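In the NAMPT LKO group, 47 gene levels and ratios were examined for a liver whose gap to the nearest other liver exceeded Dixon's limit of 0.71 of the range for 5 samples, a limit that chance passes about once in 20 groups, and 3 were marked. For Pklr, NAMPT LKO mouse 1 (89.1 CPM, the others 36.05 to 47.5) had a gap of 0.784 of the range. For Mlx, NAMPT LKO mouse 4 (21.8 CPM, the others 15.2 to 16.4) had a gap of 0.82. For Fasn, NAMPT LKO mouse 1 (143 CPM, the others 60.1 to 78.7) had a gap of 0.775. Thrsp, another textbook ChREBP target, was at 15.04 CPM in NAMPT LKO mouse 1, within its group. The cause was not tested.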

How the results depend on the processing

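With 2 refed mice, a fit without 1 of them assumes that the other varies like the remaining groups, and ratios could not be tested there. In NAMPT LKO vs WT fasting livers, 0 of the 9 genes and 0 pathway list genes were called under every alternative run. The counts of called genes changed most. In WT fasting vs refed livers 1646 genes were called by DESeq2, 3331 by voomWithQualityWeights, 1617 with only the 2 groups, 1476 with the GC trend removed and 107 to 2235 with 1 mouse left out. In NAMPT LKO vs refed livers these were 4281 by voomWithQualityWeights and 226 to 2835 with 1 mouse left out (2835 without NAMPT LKO mouse 5). In NAMPT LKO vs WT fasting livers 2 genes were called with library size alone, 17 without a filter, 3 with filterByExpr, 21 by DESeq2, 24 by the exact test, 3 with the GC trend removed and 1 to 2 with 1 mouse left out.

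Of the 9 genes, voomWithQualityWeights called 2 in WT fasting vs refed and 4 in NAMPT LKO vs refed livers. It added Slc2a2 (0.30 and 0.27), Pfkfb1 (-0.88) and Pfkfb3 (-0.99). Of the 87 pathway list genes tested it called 25 and 29, beside 3331 and 4281 of all 13444 genes tested. With only the 2 groups, 0 of the 9 (Txnip 1.32) and 13 list genes were called in WT fasting vs refed livers, and DESeq2 called 17 list genes in NAMPT LKO vs refed livers. With 1 mouse left out, 0 to 1 of the 9 and 2 to 15 list genes were called in WT fasting vs refed livers, and 0 to 2 and 2 to 19 in NAMPT LKO vs refed livers. Txnip then ranged from 1.01 to 1.65 and from 1.62 to 1.83, and Pfkfb1 in NAMPT LKO vs refed from -0.91 to -0.54.

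Small differences changed sign. With voomWithQualityWeights these were Pfkl in WT fasting vs refed (-0.0048), Pfkl (0.092) and Slc2a2 (-0.031) in NAMPT LKO vs WT fasting, and Khk (0.025) and Mlxipl (0.0086) in NAMPT LKO vs refed. With the GC trend removed they were Pklr (0.030), Pfkl (0.071) and Slc2a2 (-0.056) in NAMPT LKO vs WT fasting and Khk (0.043) and Mlxipl (0.050) in NAMPT LKO vs refed, and with library size alone Pfkl in the latter (-0.031). With 1 mouse left out, values in WT fasting vs refed ranged from -0.34 to 0.0085 for Pklr, -0.078 to 0.17 for Pfkl, -0.23 to 0.13 for Mlxipl and -0.12 to 0.32 for the Pfkfb3 to Pfkfb1 log2 ratio. In NAMPT LKO vs WT fasting they ranged from -0.31 to 0.10 for Pklr, -0.12 to 0.12 for Pfkl, -0.035 to 0.14 for Slc2a2, -0.0036 to 0.10 for Mlxipl and -2.48 to 0.16 for Hk3. For the log2 ratios there they ranged from -0.33 to 0.46 for Pklr to Pkm, -0.073 to 0.14 for Pfkl to Fbp1 and -0.058 to 0.24 for Pklr to Pck1. In NAMPT LKO vs refed they ranged from -0.19 to 0.051 for Gckr, -0.069 to 0.056 for Khk and -0.18 to 0.18 for Mlxipl. Ranked by Spearman's rho, 2, 0, 0 and 2 of the 5 genes nearest to Mlxipl, Txnip, Pklr and Slc2a2 were shared. The cause of these changes was not tested.

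No label says that a replicate number marks a shared litter or day, so the numbers of NAMPT LKO and WT fasting mice were not treated as pairs. Deviations of same-numbered livers correlated across genes at 0.091 to 0.096, under the bound of 0.1 used for pairing, but each NAMPT LKO liver from 1 to 3 correlated best with its own number (other pairs -0.16 to 0.04), which is a hint from the data. With this number as a block over libraries 1 to 3, 0 genes were called, and 0 in the same libraries without the block (0 of the 9 in both). Pklr was then at 0.10 with the block and 0.16 without it and Pfkl at 0.049 and 0.036.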

Other observations

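Within the WT fasting group, mouse 1 had the highest values of Txnip (133 CPM), Arrdc4 (24.6 CPM), Pdk4 (40.8 CPM) and G6pc (668 CPM) and the lowest of Thrsp (11.4 CPM). Mouse 2 had the lowest values of Txnip (49.0 CPM), Arrdc4 (17.5 CPM) and Pdk4 (9.95 CPM) and the highest of Thrsp (26.8 CPM). Other genes did not follow this order. G6pc (182 CPM) and Gm15441 (9.15 CPM) were lowest, and Fasn (104 CPM) was highest, in mouse 3. Arrdc2 (10.8 CPM) was lowest and Elovl6 (30.99 CPM) highest in mouse 1. The SD of Txnip was 42.7 CPM among the 3 WT fasting livers and 11.7 CPM among the 5 NAMPT LKO livers. Whether the spread differs between the genotypes was not tested.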
